A study of Saccharomyces cerevisiae with 6 samples.

Results

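The 18S-proximal 5' ETS is the stretch of the 5' external transcribed spacer of yeast ribosomal DNA (rDNA) that lies directly upstream of the 18S rRNA gene. Its members were chosen by position alone, as every row annotated as 5' ETS at positions 351 to 700 counted from the start of the transcribed rDNA, which gave 350 positions of the 6858 measured. In genome build R64 they occupy chrXII:466870-467219 on the minus strand, inside RDN37-2, the annotated 35S precursor gene. The stretch ends where RDN18-2, the 18S gene, begins, so the annotated region and its coordinates matched the deposited labels at every position. The other 350 positions of the spacer, 1 to 350, are called the promoter-proximal 5' ETS here.

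The assay was NET-seq, native elongating transcript sequencing, of RNA polymerase I (Pol I) in Saccharomyces cerevisiae. NET-seq sequences the 3' ends of RNA that comes down with an immunoprecipitated polymerase, and so reads the polymerase's place on its template at single bases. There were 6 libraries, 2 of wild-type (WT) yeast, 2 of a cdc73 deletion strain and 2 of a paf1 deletion strain, all grown at 30 degrees Celsius. No other allele, agent or time point is given for any group, and the labels do not say whether replicates came from separate cultures, so p-values measure the spread between these libraries only.

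Pol I transcribes the repeated rDNA genes into a single long precursor. The 5' ETS is transcribed before any mature rRNA, guides early assembly of the small ribosomal subunit, among other ways by pairing with the U3 snoRNA, and is cut away and degraded. Paf1 and Cdc73 are subunits of the Paf1 complex, an elongation factor that travels with RNA polymerase II and, in yeast, is also known to act on Pol I. The comparisons ask how Pol I is distributed when either subunit is missing.

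The sequences below are the RNA, read 5' to 3', of the stretches on which the results turn, and capitals mark the letters described for each. The stretch at 521 to 555 (chrXII:467015-467049) held most of the strongest WT signal, and its capitals are the positions among the 10 highest of the 350 in WT.
WT at 521 to 555: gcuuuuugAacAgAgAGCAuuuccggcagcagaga
In the following stretches the capitals are the positions among the 10 highest of the genotype that is named. They are shown because the letters on which signal peaked differed between the genotypes. They lie at chrXII:467150-467169, chrXII:467130-467149, chrXII:467070-467089 and chrXII:466930-466949.
paf1 deletion at 401 to 420: agcgAuaucaaacguaccAu
cdc73 deletion at 401 to 420: agcgaUaucaaacguaccau
WT and cdc73 deletion at 421 to 440: uccgugaaacaccgggGuau
paf1 deletion at 421 to 440: uccgugaaacaccggGGuau
WT at 481 to 500: uaugguauggugacggAgug
paf1 deletion at 481 to 500: uaugguauggugacgGAgug
cdc73 deletion at 481 to 500: uaugguauggugacGgaGUg
paf1 deletion at 621 to 640: gAGGgaauaggugggaaaaa
cdc73 deletion at 621 to 640: gagGgaauagGUgggaaaaa
A run of 11 A at 636 to 646, in capitals within chrXII:466914-466944, is the longest run of a single base among the 350 positions.
run of A at 626 to 656: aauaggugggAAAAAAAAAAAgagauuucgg
The junction at chrXII:466850-466889 joins the last 20 bases of the spacer, in lower case, to the start of 18S, in capitals.
junction at 681 to 720: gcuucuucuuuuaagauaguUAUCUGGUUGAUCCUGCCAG
Over the 350 positions there were 103 A, 103 U, 82 G and 62 C.

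The values are read numbers that the authors scaled to a fixed sum of 1000000 in each library, called the signal below. A library's signal is therefore relative, and total Pol I occupancy was not measured. The recovered depth in reads was 480708 and 226202 for WT, 29671814 and 14203939.5 in the paf1 deletion libraries and 18428847.5 and 14965806.5 in the cdc73 deletion libraries. Of these reads, 24444 and 9733 fell in the 18S-proximal 5' ETS in WT, 609857 and 287761 with paf1 deleted, and 314147.5 and 272081 with cdc73 deleted. A member had a median of 26 and 12 reads in the WT libraries and at least 271.5 in each deletion library, and 3 and 21 members were at 0 in WT. Every WT library was thus shallower than every deletion library, and depth and genotype cannot be told apart here.

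The 18S-proximal 5' ETS took a smaller share of Pol I signal in both deletions than in WT. It held 5.09% and 4.303% of all signal in the WT libraries, 2.06% and 2.03% in the paf1 deletion libraries, and 1.70% and 1.82% in the cdc73 deletion libraries. No 2 genotypes overlapped, and WT was the highest. The mean share was 4.69% ± 0.553 (SD, n = 2) in WT, 2.04% ± 0.0208 (SD, n = 2) with paf1 deleted and 1.76% ± 0.0802 (SD, n = 2) with cdc73 deleted. These means were 2.30-fold lower in the paf1 deletion and 2.67-fold lower in the cdc73 deletion than in WT. With 2 libraries against 2, the exact two-sided permutation test cannot go below p = 0.333, which each of the 3 comparisons gave. Taken as a share of the spacers alone, the stretch held 38.1% ± 1.51, 28.5% ± 0.301 and 29.6% ± 0.158 (SD, n = 2 each) in WT, the paf1 deletion and the cdc73 deletion. WT stayed the highest, and the order of the deletions turned.

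Measured against the mean signal per position over the whole unit, the spacer's 18S-proximal positions were close to average in WT and well below average in the deletions. Their mean was 0.996 and 0.843 times that of all positions in WT, 0.403 and 0.397 times in the paf1 deletion, and 0.334 and 0.356 times in the cdc73 deletion. The signal of the median member was 54.1 and 53.1 in WT, 23.0 and 20.6 with paf1 deleted and 18.5 and 18.1 with cdc73 deleted. Lower signal was thus present in the median as well as in the mean of the members.

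The promoter-proximal 5' ETS was lower in the deletions as well, so the difference was not tested as particular to the 18S side except through the ratio of the 2 stretches. The ratio of 18S-proximal to promoter-proximal signal was 0.999 and 0.990 in WT, 0.845 and 0.805 with paf1 deleted, and 0.974 and 0.993 with cdc73 deleted. The paf1 deletion lay below the other genotypes, at a mean of 0.825 ± 0.0283 (SD, n = 2) against 0.995 ± 0.0065 (SD, n = 2) in WT, with an exact permutation p of 0.333. The cdc73 deletion, at 0.983 ± 0.0137 (SD, n = 2), overlapped WT, with an exact permutation p of 0.667. Without the 25 positions from 526 to 550 the ratio was 0.657 in WT, 0.788 with paf1 deleted and 0.910 with cdc73 deleted. Both comparisons with WT thus turned direction. Those positions were picked for their WT signal and left out of the 18S-proximal sum only, so a fall of the WT ratio was built into the choice. No direction can be read from this turn.

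Those 25 positions were the strongest part of the WT profile. They held 35.0% and 32.8% of the 18S-proximal signal in WT, 3.92% and 5.06% with paf1 deleted, and 7.91% and 7.12% with cdc73 deleted. WT stood far above both deletions, with no overlap. As a share of all signal they held 1.596% ± 0.258 (SD, n = 2) in WT, 0.0915% ± 0.0155 (SD, n = 2) with paf1 deleted and 0.132% ± 0.0038 (SD, n = 2) with cdc73 deleted. Among the windows of 25 nt tested by limma, it was called lower than WT in both deletions. The log2 changes were -4.12 with paf1 deleted and -3.59 with cdc73 deleted. This stretch was picked for its WT signal, so the values and calls only describe it and are not separate evidence of a fall. With it left out, the remaining 325 positions held 3.15% ± 0.308, 1.95% ± 0.0360 and 1.63% ± 0.0840 of all signal (SD, n = 2 each) in WT, the paf1 deletion and the cdc73 deletion, and WT was still the highest, by 1.61-fold and 1.93-fold.

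**Figure D1:**
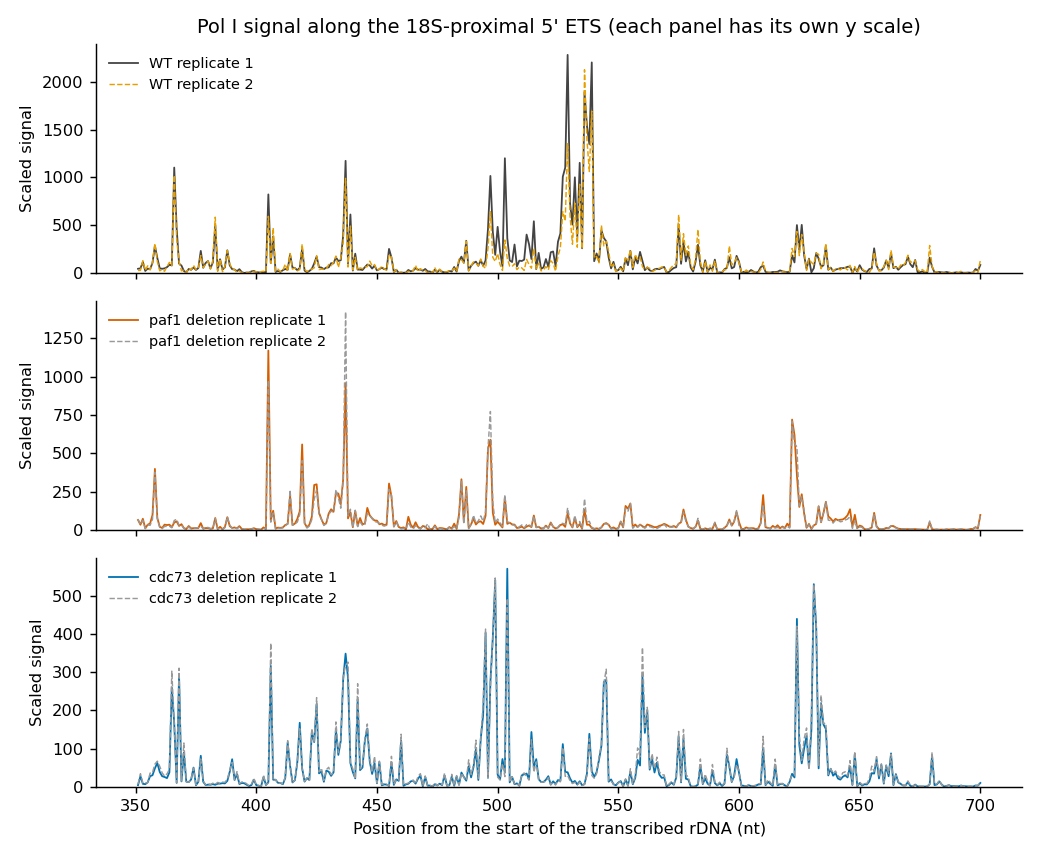
Scaled Pol I signal at each of the 350 positions, with position in nt on the x axis and a panel for each genotype, in which the solid and dashed lines are replicates 1 and 2 and the y scales differ. The WT peak cluster between 526 and 550, which held 33.9% of the 18S-proximal signal on average, is low in both deletions.

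Cut into 7 windows of 50 nt, the spacer did not change evenly. In the window 501 to 550 the share of all signal was 2.34% and 1.64% in WT, 0.163% and 0.194% with paf1 deleted, and 0.262% and 0.241% with cdc73 deleted. The WT libraries were both higher than any deletion library, and WT replicate 1 was the higher of them. The log2 change was -3.46 (SE 0.11) with paf1 deleted and -2.96 (SE 0.17) with cdc73 deleted, the latter with a limma adjusted p of 2.82e-05. The WT replicates lay apart in both parts of this window. They held 1.779% and 1.413% of all signal at 526 to 550, and 0.565% and 0.227% at 501 to 525. Position 503, a C in the latter part, had a signal of 1202 and 345.

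The windows at the ends of the stretch fell in both deletions too. The last window before 18S, 651 to 700, held 0.232% and 0.262% of all signal in WT, 0.0568% and 0.0538% with paf1 deleted, and 0.0679% and 0.0761% with cdc73 deleted, with no overlap between WT and either deletion. Its log2 change was -2.16 with paf1 deleted and -1.78 with cdc73 deleted. The first window, 351 to 400, had log2 changes of -1.67 and -1.47 in the same order. The window 551 to 600 had changes of -1.49 and -1.23.

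The window 601 to 650, which holds the run of A, passed the test as a whole in neither deletion, but it joined stretches that differed. It held 0.374% and 0.380% of all signal in WT, 0.432% and 0.406% with paf1 deleted, and 0.330% and 0.359% with cdc73 deleted. The paf1 deletion libraries were the highest and the cdc73 deletion libraries the lowest. Neither deletion passed the limma test against WT, with log2 changes of 0.15 (adjusted p = 0.207) and -0.13 (adjusted p = 0.187). In windows of 25 nt the paf1 deletion was higher at 601 to 625 (log2 change 0.78, limma adjusted p = 0.00023) and lower at 626 to 650 (-0.41, limma adjusted p = 0.0098). The cdc73 deletion was lower at 601 to 625 (-0.63, limma adjusted p = 0.00057) and did not pass at 626 to 650 (0.098, limma adjusted p = 0.36).

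The window 401 to 450 behaved differently in the deletions: against WT its log2 change was 0.14 in the paf1 deletion, which did not pass (limma adjusted p = 0.249), and -0.62 in the cdc73 deletion, which did.

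Counted together, 0 of 7 windows were called higher and 5 lower in the paf1 deletion against WT, where 43.5% and 37.0% of the 138 windows of the whole unit were called higher and lower. In the cdc73 deletion against WT the counts were 0 and 6, beside 31.9% and 40.6% over the whole unit. The counts of higher windows at an unadjusted limma p under 0.05 were also 0 and 0. The limma fit of the paf1 deletion against WT took 1 spread for all windows, which gave the same SE of 0.11 throughout, so its p-values rest on that shared spread. The lower call of window 451 to 500 in that comparison was the closest to the threshold, at a log2 change of -0.25 and a limma adjusted p of 0.0289. It rested on single libraries: without WT replicate 1 the change was -0.038 (limma adjusted p = 0.679), without WT replicate 2 it was -0.47 (0.0207), and without paf1 deletion replicate 1 or 2 the adjusted p was 0.372 and 0.268.

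Between the deletions, 3 windows were called higher in the paf1 deletion and 2 lower, beside 33.3% and 15.9% over the whole unit. The 3 higher ones were 401 to 450 (log2 difference 0.76), 451 to 500 (0.35) and 601 to 650 (0.28), and the 2 lower ones were 501 to 550 (-0.50) and 651 to 700 (-0.38). With the replicate block 2 were higher and 2 lower, as 601 to 650 then had a limma adjusted p of 0.0559. Without paf1 deletion replicate 1, without paf1 deletion replicate 2 or without cdc73 deletion replicate 2, limma called 0 and 0 of the 7 windows and 0 of all 138, and without cdc73 deletion replicate 1 it called 1 and 1 of the 7. At an unadjusted p under 0.05 the counts in those first 3 fits were 2 and 2, 3 and 1, and 3 and 2. The log2 difference over the 4 fits was 0.71 to 0.80 at 401 to 450, 0.31 to 0.39 at 451 to 500, 0.22 to 0.34 at 601 to 650, -0.63 to -0.37 at 501 to 550 and -0.46 to -0.30 at 651 to 700.

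**Figure D2:**
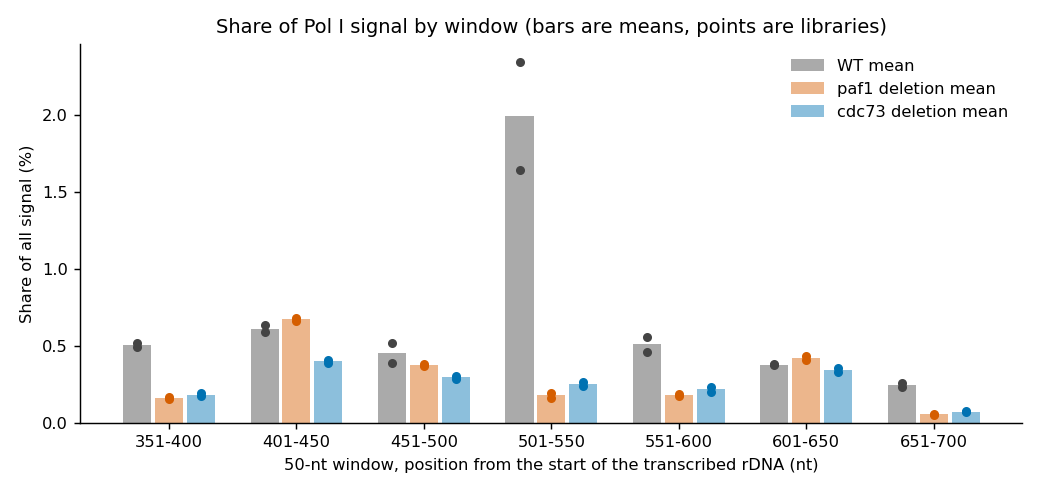
Share of all Pol I signal, in percent, in the 7 windows of 50 nt, with bars for genotype means and points for the 2 libraries of each. WT is far above both deletions at 501 to 550, at 1.99% on average, and the 3 genotypes lie within 0.330% to 0.432% at 601 to 650.

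The shape within the spacer therefore differed as well as its level. As a share of the 18S-proximal signal, 501 to 550 took 42.1% in WT, 8.76% with paf1 deleted and 14.3% with cdc73 deleted. The window 401 to 450 took 13.1%, 33.0% and 22.6% in the same order, and 601 to 650 took 8.10%, 20.5% and 19.6%. The 10 highest positions of each library held 29.5% and 27.8% of the 18S-proximal signal in WT, 30.3% and 32.9% with paf1 deleted, and 24.9% and 23.6% with cdc73 deleted. The genotypes did not overlap, with the cdc73 deletion the lowest, and no test was made.

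At single positions, all 350 members had a value above 0 in enough libraries to be tested. In the paf1 deletion against WT, 26 members were higher and 169 lower by limma at an adjusted p under 0.05, and 155 were neither. That is 7.43% and 48.3% of the members, while 29.6% and 19.6% of all tested positions of the unit were called higher and lower. The members' median log2 change was -0.33, beside 0.09 over all tested positions. The number called higher depended on single libraries: it was 11 without paf1 deletion replicate 1, 59 without WT replicate 1 and 45 without WT replicate 2. At reads thinned to the shallowest library, 11 of 342 tested members were higher and 103 lower, which is 3.22% and 30.1%, beside 16.0% and 12.5% of all tested positions.

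In the cdc73 deletion against WT, 46 members were higher and 186 lower, which is 13.1% and 53.1%, and 118 were neither. Over all tested positions 30.0% were higher and 29.4% lower. The median log2 change was -0.37 for the members and -0.0049 for all tested positions. The count of higher members was 74 without WT replicate 1 and 30 without cdc73 deletion replicate 2, and thinning gave 28 higher and 146 lower of 341 tested, which is 8.21% and 42.8%, beside 20.0% and 21.0% of all tested positions. A change of at least 2-fold on the log2(value + pseudocount) scale was seen at 4 of the higher and 76 of the lower members with paf1 deleted, and at 21 and 97 with cdc73 deleted. Over all tested positions 7.33% were higher and 7.59% lower by that much in the paf1 deletion, and 10.6% and 11.3% in the cdc73 deletion.

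Between the deletions, the paf1 deletion had 156 higher members and 111 lower ones, which is 44.6% and 31.7%, and 83 were neither. The unit as a whole had 34.4% higher and 20.6% lower. The median log2 difference was 0.050 for the members and 0.07 for all tested positions. After thinning 49 and 48 of 333 tested members were called, which is 14.7% and 14.4%, beside 7.17% and 5.32% of all tested positions.

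Scaled to the sum of the 350 positions instead of the whole unit, the calls became more even. In the paf1 deletion against WT 117 members were then higher and 94 lower, with 74.5% and 5.92% of all tested positions called. For the cdc73 deletion against WT the counts were 124 and 113, beside 70.8% and 9.12%. Between the deletions they were 140 and 119, beside 24.7% and 28.5%.

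**Figure D3:**
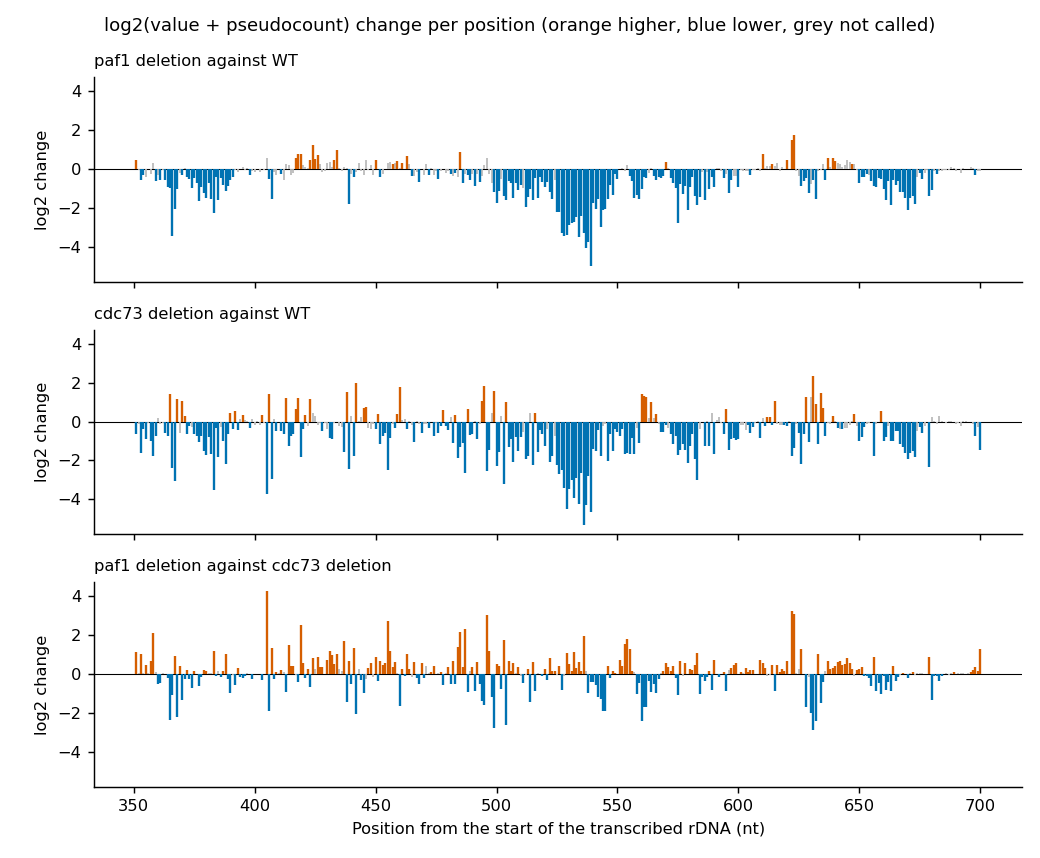
Change per position on the log2(value + pseudocount) scale for the 3 comparisons, with position in nt on the x axis, where orange and blue lines mark positions called higher and lower by limma and grey lines those not called. Lower calls cover the WT peak cluster at every position from 526 to 550 in the paf1 deletion and at all of these except 544 and 545 in the cdc73 deletion, and elsewhere the cdc73 deletion has 46 higher calls scattered among its lower ones.

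The positions with the largest falls lay in the WT peak cluster. Position 539, an A, had a signal of 2205 and 1695 in WT, 12.3 and 16.7 with paf1 deleted, and 40.5 and 30.0 with cdc73 deleted. WT was above every deletion library, and the 2 deletions did not overlap. The log2 change was -4.98 (SE 0.16, limma adjusted p = 1.77e-05) in the paf1 deletion, its largest fall among the 350, and -4.64 in the cdc73 deletion. Position 536, also an A, had 1895 and 2129 in WT, 131 and 203 with paf1 deleted, and 7.001 and 6.35 with cdc73 deleted. The groups did not overlap here either, with the cdc73 deletion the lowest. Its log2 change of -5.33 (SE 0.11, limma adjusted p = 4.22e-05) in the cdc73 deletion was the largest there, against -3.28 in the paf1 deletion.

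Neighbours of these positions fell with them. Position 529, an A, had 2284 and 1354 in WT, 109 and 144 with paf1 deleted, and 38.0 and 30.2 with cdc73 deleted. Position 537, a G, had 1543 and 1399, 33.6 and 50.7, and 34.5 and 29.2 in the same order, and position 534, an A, had 1154 and 929, 38.0 and 54.9, and 14.4 and 12.2. At all 3 the WT libraries were above every deletion library. Of the 10 largest falls among the members eligible to be named, 9 lay between 527 and 543 in the paf1 deletion and 8 between 528 and 539 in the cdc73 deletion.

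Outside this cluster, the falls were not the same in the deletions. Position 366, an A, had a signal of 1104 and 1022 in WT, 48.0 and 61.2 with paf1 deleted, and 167 and 164 with cdc73 deleted. It was highest in WT and lowest in the paf1 deletion. Position 383, a G, had 500 and 584 in WT, 77.4 and 73.2 with paf1 deleted, and 5.27 and 6.75 with cdc73 deleted, so here the cdc73 deletion was the lowest. The log2 changes were -3.44 and -2.40 at 366, and -2.25 and -3.54 at 383, for the paf1 and cdc73 deletions in that order.

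Position 405, an A, separated the deletions most on the log2(value + pseudocount) scale. Its signal was 823 and 593 in WT, 1170 and 975 with paf1 deleted, and 12.3 and 9.76 with cdc73 deleted. The paf1 deletion was above WT in both libraries and the cdc73 deletion far below. The log2 change against WT was 0.58 in the paf1 deletion, which did not pass (limma adjusted p = 0.0588), and -3.75 in the cdc73 deletion, and the difference between the deletions was 4.26 (SE 0.12, limma adjusted p = 1.78e-06). The next base, the U at 406, went the other way, at 104 and 102 in WT, 62.0 and 50.4 with paf1 deleted, and 317 and 376 with cdc73 deleted. The scale understates differences where values are low. At the C at 455 the signal was 302 and 264 with paf1 deleted and 2.17 and 2.00 with cdc73 deleted, a log2 difference of 2.74.

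Only 9 members met the rule for naming a rise in the paf1 deletion, and the 2 largest were neighbours. Position 623, a G, had 110 and 173 in WT, 619 and 564 with paf1 deleted, and 24.5 and 29.5 with cdc73 deleted. Position 622, an A, had 185 and 257, 720 and 708, and 34.0 and 29.7 in the same order. At both the paf1 deletion was above WT and the cdc73 deletion below it, with no overlap. The log2 changes in the paf1 deletion were 1.77 (SE 0.18, limma adjusted p = 0.00025) and 1.51. The other 7, at 419, 424, 425, 433, 434, 485 and 610, rose by 0.45 to 1.25 on the log2 scale.

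Among the members eligible to be named, the largest rise in the cdc73 deletion on the log2(value + pseudocount) scale was at position 631, a G. Its signal was 49.98 and 88.5 in WT, 28.9 and 33.0 with paf1 deleted, and 531 and 530 with cdc73 deleted. Both cdc73 deletion libraries were above all others, and the paf1 deletion was the lowest. Its log2 change was 2.36 (SE 0.18, limma adjusted p = 0.000263) against WT, and the difference of the paf1 deletion from the cdc73 deletion was -2.88. Position 442, a U, rose by 1.96, from 35.4 and 26.6 in WT to 229 and 270. Position 499, also a U, rose by 1.59, from 189 and 120 to 541 and 547, and was the highest member of all in the cdc73 deletion on average. The ranking depends on the pseudocount and the naming rule. Position 460, which is not among the named rises, went from 4.16 and 8.85 in WT to 122 and 138 with cdc73 deleted, a log2 change of 1.78.

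The strong positions 624 and 437 were peaks in all 3 genotypes. Position 624, a G, had a signal of 502 and 434 in WT, 357 and 542 with paf1 deleted, and 440 and 421 with cdc73 deleted. The 3 genotypes overlapped, and no comparison passed the limma test. Position 437, also a G, had 1175 and 991 in WT, 957 and 1423 with paf1 deleted, and 349 and 318 with cdc73 deleted. WT and the paf1 deletion overlapped, and the cdc73 deletion was lower, by -1.57 on the log2 scale against WT (limma adjusted p = 0.000379).

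The run of 11 A at 636 to 646 had uneven signal. The highest signal in the run was 285 and 310 in WT, 183 and 182 with paf1 deleted, and 152 and 167 with cdc73 deleted. The lowest was 18.7 and 17.7, 55.2 and 44.3, and 18.8 and 22.8. These extremes were taken within each library, so the position that held them may differ between libraries. The mean signal per position of the run was 68.7 and 68.8 in WT, 88.9 and 73.7 with paf1 deleted, and 42.6 and 49.9 with cdc73 deleted. For the 350 as a whole it was 145 and 123, 58.7 and 57.9, and 48.7 and 52.0. The mean of the run in WT was thus below the mean of the 350, and in the paf1 deletion above it. A read that ends inside such a run can match several positions, and how it was placed is not given in the sources used here.

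A pause site was taken as a position whose signal, in both libraries of a genotype, exceeded the mean plus 3 SD of the 101-nt window around it with the position itself left out. By this measure the 18S-proximal 5' ETS held 8 pause sites in WT, 8 with paf1 deleted and 14 with cdc73 deleted. That is 2.29%, 2.29% and 4% of its positions, beside 1.90%, 1.66% and 1.97% of all positions of the unit. The count depends on the cutoff: at the mean plus 4 SD there were 3, 7 and 7. No test was made of these counts.

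The letters at the pause sites differed between the genotypes. In WT 6 were A and 2 were G, at 366, 437, 439, 529, 536, 539, 624 and 626. In the paf1 deletion 4 were A and 4 were G, at 405, 437, 496, 497, 555, 622, 623 and 624. In the cdc73 deletion 7 were G, 7 were U and 0 were A, at 365, 368, 406, 436, 437, 438, 495, 498, 499, 504, 560, 624, 631 and 632. The G at 437 and the G at 624 were pause sites in all 3 genotypes, and any 2 genotypes shared only these 2. That is 25% of the WT sites, 25% of those of the paf1 deletion and 14.3% of those of the cdc73 deletion. How many sites were shared over the whole unit was not counted. The measure also depends on the signal around a position. The A at 497 was a site with paf1 deleted only, at 588 and 773, yet WT had 1016 and 642 there.

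Over all 350 positions the signal was distributed over the bases in the same manner. Relative to the mean of the 350, the mean signal on A was 1.36 and 1.38 in WT, 1.28 and 1.23 with paf1 deleted, and 0.585 and 0.586 with cdc73 deleted. On U it was 0.636 and 0.688 in WT, 0.485 and 0.455 with paf1 deleted, and 1.29 and 1.31 with cdc73 deleted. WT and the paf1 deletion thus had more signal on A than on U, and the cdc73 deletion more on U than on A. On G the 3 genotypes had 1.09 ± 0.0236, 1.56 ± 0.0811 and 1.33 ± 0.0190 (SD, n = 2 each), and C was below 1 in all 6 libraries.

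For none of the 4 bases in the 3 comparisons did the groups overlap. Each of these 12 exact permutation tests gave the smallest possible p of 0.333, which stayed 0.333 after Benjamini-Hochberg adjustment. Computed from the mean of log2 signal, the difference of the paf1 deletion from WT turned direction on A and C, to 0.0020 and 0.018, as did that of the paf1 deletion from the cdc73 deletion on C, to 0.024. Without the 25 positions from 526 to 550, WT had 1.14 on A, 1.20 on G and 0.807 on U, so its order of A over U was kept. There the means on A were 1.12 and 1.16 in WT, 1.26 and 1.18 in the paf1 deletion, and 0.602 and 0.606 in the cdc73 deletion. The difference of the paf1 deletion from WT on A thus turned direction, with no overlap. The stretch left out was picked for its WT signal. In the promoter-proximal 5' ETS the means on A were 1.43, 1.43 and 0.534, and on U 0.785, 0.698 and 1.19, in WT, the paf1 deletion and the cdc73 deletion. That order of A and U was the same as in the 18S-proximal stretch.

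**Figure D4:**
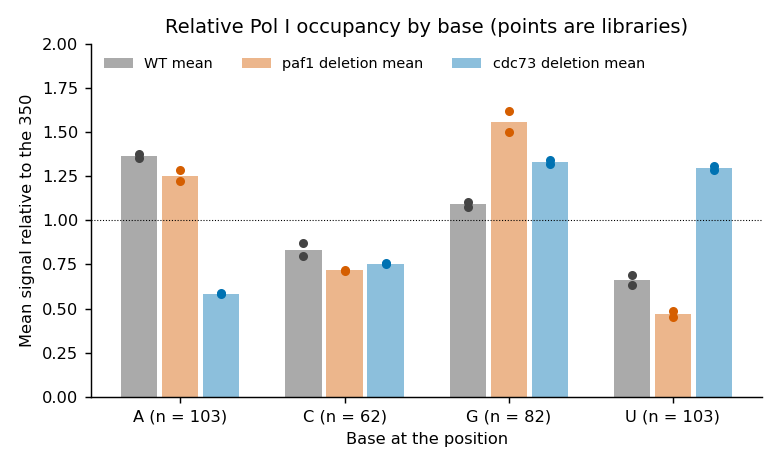
Mean signal on each base relative to the mean of the 350 positions, with bars for genotype means, points for libraries, and the dotted line at 1. The cdc73 deletion is lowest on A, at 0.585, and highest on U, at 1.298.

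The called positions split by base as follows, where A and U are each 29.4% of the 350, G 23.4% and C 17.7%. Of the 46 members higher in the cdc73 deletion than in WT, 52.2% were U (24) and 10.9% A (5), with 9 C and 8 G, whereas of the 186 lower ones 38.2% were A (71) and 22.6% U (42), with 37 G and 36 C. Of the 26 members higher in the paf1 deletion than in WT, 10 were A, 8 G, 5 C and 3 U, and of the 169 lower ones 30.2% were A (51) and 35.5% U (60). The share of A among the latter was thus near that of all members. Between the deletions, 41.0% of the 156 members higher in the paf1 deletion were A (64) and 13.5% U (21), and of the 111 lower ones 13.5% were A (15) and 50.5% U (56).

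The base that follows the position also went with the signal. Positions followed by G had a mean relative signal of 1.25 ± 0.0219 in WT, 1.48 ± 0.0231 with paf1 deleted and 1.95 ± 0.0008 with cdc73 deleted (SD, n = 2 each). Those followed by U had 1.07 ± 0.0117, 1.27 ± 0.0149 and 0.620 ± 0.0210 in the same order. The cdc73 deletion was the highest before a G and the lowest before a U. Positions followed by A had means of 0.748, 0.659 and 0.793, and those followed by C 0.961, 0.480 and 0.723. Before these 2 bases the paf1 deletion was the lowest. These values were not tested.

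High positions of a genotype were set beside the next base in the others. Of the 10 highest positions of the paf1 deletion, the base 1 nt downstream carried more signal in both libraries at 6 in the cdc73 deletion, at 2 in the paf1 deletion and at 3 in WT. Of the 10 highest of the cdc73 deletion, it did so at 5 in the paf1 deletion, at 4 in WT and at 1 in the cdc73 deletion. A low count in the genotype that chose the positions follows from the choice, so these counts show no direction. From 497 to 498 the mean signal went from 680 to 145 in the paf1 deletion, from 829 to 296 in WT and from 267 to 388 in the cdc73 deletion. From 623 to 624 it went from 592 to 449, from 141 to 468 and from 27.0 to 430 in the same order. At 437 and 438 the cdc73 deletion had 333 and 306, where WT had 1083 and 79.9. Other positions showed no such difference. From 419 to 420 the mean signal fell from 504 to 43.0 in the paf1 deletion, from 279 to 32.4 in WT and from 47.6 to 14.1 in the cdc73 deletion.

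Profiles were also set against each other at offsets of up to 3 nt. Across the 350 positions the mean Spearman correlation of a WT with a paf1 deletion library was 0.666 at offset 0 and 0.336 with the paf1 deletion read 1 nt downstream. For WT with the cdc73 deletion it was 0.479 at 0 and 0.416 at 1 nt downstream. For the paf1 deletion with the cdc73 deletion it was 0.536 at 0 and 0.552 at 1 nt downstream, so the 2 alignments were about equally alike. The promoter-proximal 5' ETS gave 0.496 and 0.502 for the same pair, and the 18S gene 0.750 and 0.543, so the near tie was found on both sides of the spacer. Replicates gave 0.930 in WT, 0.973 with paf1 deleted and 0.991 with cdc73 deleted. These correlations are across positions, which share a library, its depth and its sequence and are not independent, and they are given as a description.

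**Figure D5:**
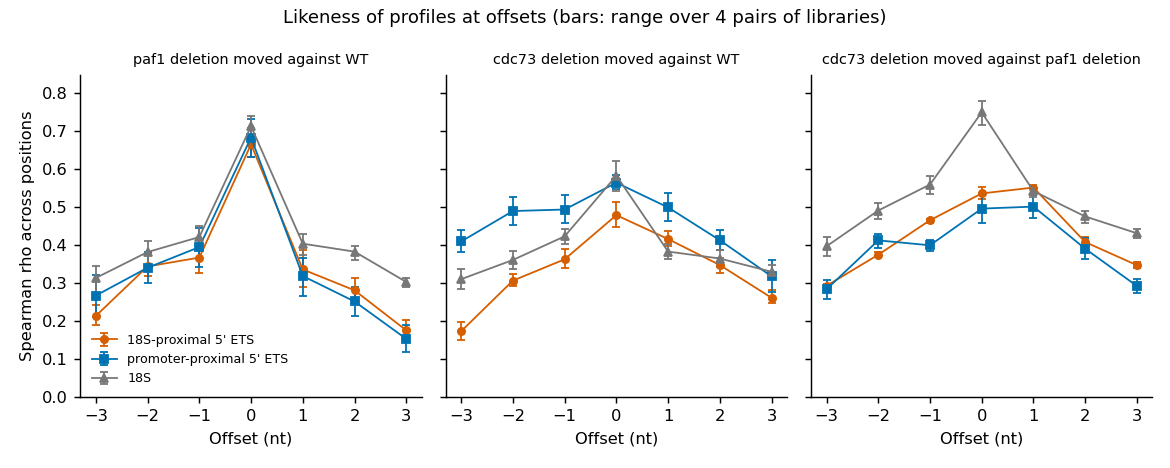
Mean Spearman correlation across positions between libraries of 2 genotypes when 1 profile is moved by -3 to 3 nt, for the 18S-proximal 5' ETS, the promoter-proximal 5' ETS and 18S, with bars for the range over the 4 pairs of libraries. WT and the paf1 deletion are most alike at 0 nt, at 0.666 in the 18S-proximal 5' ETS, whereas the paf1 and cdc73 deletions reach 0.536 at 0 nt and 0.552 at 1 nt.

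Summed over 50 nt on each side of the junction with 18S, the signal was higher in 18S in all 6 libraries, by different amounts. The first 50 nt of 18S held 0.684% and 0.705% of all signal in WT, 0.890% and 0.856% with paf1 deleted, and 0.546% and 0.389% with cdc73 deleted. Divided by the share of the last 50 nt of the spacer given above, this gave ratios of 2.95 and 2.69 in WT. The ratios were 15.7 and 15.9 with paf1 deleted, and 8.04 and 5.12 with cdc73 deleted. The genotypes did not overlap, with the paf1 deletion the highest and WT the lowest, and no test was made.

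The last base of the spacer, the U at 700, had a signal of 83.3 and 133 in WT, 97.2 and 90.0 with paf1 deleted, and 10.04 and 10.7 with cdc73 deleted. WT and the paf1 deletion overlapped, and the cdc73 deletion was below both. The first base of 18S, the U at 701, was low in all libraries, at 2.75 to 16.7. The A at 702 had 423 and 443 in WT, 251 and 193 with paf1 deleted, and 2.33 and 2.74 with cdc73 deleted. As at 405 and 536, this A carried signal in WT and was nearly empty in the cdc73 deletion. Other A kept more. The mean at the A at 366 was 1063 in WT and 165 with cdc73 deleted, and at 497 it was 829 and 267. Other bases were also emptied. The G at 383 had means of 542 and 6.01 in the same order, and the C at 455 had 221 and 2.09. Near-emptying was thus neither found at every strong A nor limited to A.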

How the data were processed

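NET-seq reads were processed on build R64 with STAR 2.7.1a, cutadapt 3.4, bcl2fastq 2.20.00, SAMtools 1.6, FastQC 0.11.7, R 4.3.2 and bedtools 2.28.0, per the submitters' processing notes. Per the labels' protocols, the 3' linker carried a UMI. Whether UMIs were collapsed and how reads matching several rDNA copies were placed was not stated in the sources used here. The deposited signal, in 3 tables, is a read number scaled per library over positions 1 to 6739, as the values show, and the other 119 positions are on that scale. No further column of sample values was present (0). Dividing by a library's smallest value gave whole reads, within 0.1, at 99.9% of positions or more, and in the paf1 deletion this takes the smallest value as 1 read. Among the values 21 were not whole, 1 of them in a member.

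All positions above 0 in at least 2 of 4 libraries were tested by limma 3.58.1 (trend) in R 4.3.3 on log2(signal + pseudocount), which understates changes at low positions, with Benjamini-Hochberg adjustment over the unit. The pseudocount, 0.5 times the median of values above 0, was 48.1 (paf1 deletion against WT), 44.3 (cdc73 deletion against WT) and 47.4 (between the deletions). Windows were tested by limma on log2 shares, and shares, ratios and bases by exact permutation. As the values were not counts, edgeR 4.0.16 served only as an alternative for the cdc73 deletion against WT, on recovered reads. Named positions are the 10 largest rises and falls per comparison among those that passed 0.05 without overlap and lay no lower on average than the median tested position, the 10 highest per genotype, and the 3 positions on each side of the 18S start. The members and these rules were chosen with earlier results of these data known. The code was tested on simulated data. Python 3.11.15, numpy 2.4.6, pandas 2.3.3, scipy 1.17.1 and matplotlib 3.10.9 were used.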

Additional observations from a re-analysis of the deposited data

How the results depend on the processing

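With the replicate block, 32 members were higher and 173 lower in the paf1 deletion against WT, 51 and 200 in the cdc73 deletion against WT, and 153 and 111 between the deletions, where windows were 2 and 2. It changed no other window count. The labels share only replicate numbers, and the deviations of same-numbered samples correlated at 0.114, 0.034 and -0.227. The crossed pairing gave 164 and 114 between the deletions, and was chosen after seeing the data. Scaled to the sum of the 350, members called higher and lower numbered 117 and 94 (paf1 deletion against WT) and 124 and 113 (cdc73 deletion against WT), and 50-nt windows 3 and 3, 3 and 1, and, between the deletions, 1 and 4. Thinned to the shallowest depth, members numbered 11 and 103, 28 higher, and 49 and 48. Windows of 25 nt gave 2 and 9, 13 lower, and 5 and 5. Leaving out each library gave 11 to 59 higher members (paf1 deletion against WT), 30 to 74 (cdc73 deletion against WT), and 0 to 1 windows in each direction between the deletions.

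The share differed from WT by -9.60 and -8.50 points within the spacers, where the deletions differed by -1.10, reversed, and by -1.20 and -1.52 without positions 526 to 550. With positions capped the deletions differed by 0.188. The ratio to the promoter-proximal 5' ETS without 526 to 550 differed from WT by 0.131 and 0.252, both reversed, and between the deletions by -0.122. That stretch was chosen for its WT signal after seeing the data, so a fall of the WT ratio was built into the choice. For the relative occupancy of A, C, G and U, the mean of log2 signal gave 0.0020, 0.018 (both reversed), 0.124 and -0.111 for the paf1 deletion against WT, -0.330, -0.0075, 0.0090 and 0.328 for the cdc73 deletion against WT, and 0.326, 0.024 (reversed), 0.116 and -0.433 between the deletions. Capping moved A and G to -0.066 and 0.406, A, G and U to -0.693, 0.207 and 0.588, and A, C and U to 0.627, -0.0088 and -0.780, in that order of comparisons. At the mean plus 4 SD there were 3 WT pause sites and 7 for the cdc73 deletion. The cause of these changes was not tested. Depth limits the WT values, at a median of 12 reads a member in the shallower library.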
